A study of Rattus norvegicus with 12 samples.

Results

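Cadherins are adhesion proteins of the cell surface that need calcium to bind, and the 75 protein-coding genes described here are the members of the cadherin and protocadherin superfamily found by name among the 32545 genes of the deposited table. The names taken were Cdh followed by a digit, Pcdh, Celsr1 to Celsr3, Fat1 to Fat4, Dchs1 and Dchs2. Cdh2, Cdh5 and genes on the sex chromosomes were left out of this choice. Of the 75 members, 36 had a mean of at least 0.5 FPKM (a read count scaled to gene length and library depth) over the 12 libraries and were tested among 13910 genes. The other 39 lay under that level.

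RNA was taken from the free walls of the left ventricle (LV) and the right ventricle (RV) of Sprague-Dawley rats at postnatal day 7 (P7). At P1 the rats had either a sham operation or surgery that joined the abdominal aorta to the inferior vena cava, which loads both ventricles with volume (volume overload, VO). The 4 groups (LV or RV, each after sham or VO surgery) held 3 libraries each, all from the same strain and age, and no group carried a transgene. The surgery was done under isoflurane and ice cooling, with lidocaine at the wound. The fistula acts as a shunt from left to right, so that both ventricles of an animal are loaded together. The labels do not say whether an LV and an RV library came from the same animal, and they do not state that the libraries of a group are separate animals, so that p values measure the spread between libraries.

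In a classical cadherin the outer domains bind the same cadherin on the next cell, while the tail inside the cell holds catenins and, through them, actin. Protocadherins have similar outer domains but other tails. Most of them are listed in 3 neighbouring gene clusters (alpha, beta and gamma), in which each variable exon has its own promoter and is spliced, in the alpha and gamma clusters, to exons that the whole cluster shares. Celsr proteins act in planar cell polarity, and the very large Fat and Dachsous proteins bind each other across cells and act in polarity and growth control.

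Of the members, 38 lie on chromosome 18, 23 of them tested, at the positions the deposited table lists. The alpha cluster is listed there from 29960072 to 30215897, the beta cluster from 30283675 to 30595181 and the gamma cluster from 30808404 to 30969361, followed by Pcdh1 from 31328919 and Pcdh12 from 31414250. Of the 36 clustered genes, 31 are listed as a single exon and 28 have a length that is a multiple of 3. Pcdhgc3 differs, with 5288 bases over a span of 55520 that runs on into the shared gamma exons. Its level therefore cannot be told apart from reads of the exons that gamma transcripts share, and how reads that match several clustered genes were assigned is not given in the sources used here.

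The promoters of the gamma cluster carry a short run of letters in common, and they are shown because the gamma genes are the largest class among the tested members. RefSeq promoter windows of 300 bases (250 before and 50 after the listed start, build GRCr8) matched 55 of the 75 members and 25 of the 36 tested ones. The letters CGCTGT, searched on both strands and chosen after the windows were read, were in 10 of 11 gamma promoters (90.9%), in 4 of 15 beta promoters (26.7%) and in 9.89% of all 27457 promoters. The longer run CGCTGTTCACC, which contains CGCTGT, was in 5 of 11 gamma promoters (45.5%), in 0 of 15 beta promoters and in 0.0656% of all. The 24 bases around CGCTGT are printed 5′ to 3′ on the plus strand, with these letters in capitals, for 6 gamma and 2 beta genes.
Pcdhgc3 (chr18:29884072-29884095): tctgtgtgcCGCTGTcggccaatg
Pcdhga2 (chr18:29745089-29745112): tctgagcgtCGCTGTtgaccacct
Pcdhgb8 (chr18:29839502-29839525): tctgggcgcCGCTGTtgtccaatt
Pcdhga7 (chr18:29794211-29794234): tctgcgtgcCGCTGTtcaccaacc
Pcdhga10 (chr18:29825820-29825843): tctgagcgcCGCTGTtcacctacc
Pcdhga11 (chr18:29834362-29834385): gctattgttCGCTGTttccacctt
Pcdhb20 (chr18:29485816-29485839): acatggtggCGCTGTaggataaga
Pcdhb3 (chr18:29285610-29285633): gcatggtggCGCTGTtgactaaga
In 9 of the 10 gamma windows the printed stretch begins with the letters tct, and the exception, Pcdhga11, has its match 235 bases before the start. A shared CGCT element is known in promoters of the clustered protocadherins. The match is a description of these windows and was not related to the levels below.

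The libraries held between 14121713 and 16871371 reads on genes, recovered from the FPKM, and size factors lay between 0.996 and 1.00. Sham RV replicate 1 and VO RV replicate 2 stood apart in the atrial transcript Sln. It was at 97.7 and 387.9 FPKM there and at most 0.7 FPKM in every other library. The 5 atrial markers together summed to 1065 and 4559 FPKM in them, against 212 to 1729 in the others. On the whole list only VO RV replicate 2 therefore stood apart. Both libraries are called atrial-rich below for their Sln level. These libraries also had the highest median level of the tested members relative to each gene's mean, 0.31 and 0.25 on the log2 scale, and VO RV replicate 1 had the lowest (−0.23). Among the 270 tested genes of at least 8000 bases the same medians were 0.18, 0.08 and −0.12. Transcripts of Y-linked genes were present in both sham groups (replicates 1 and 2 of each) and in VO RV replicate 3, and in no VO LV library. Ventricular cardiomyocyte markers summed to between 5157 and 8120 FPKM per library, so that heart muscle was seen in all 12 libraries. The lowest sum was that of VO RV replicate 2. This sum does not tell the LV from the RV and does not exclude other heart tissue in a library.

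**Figure D1:**
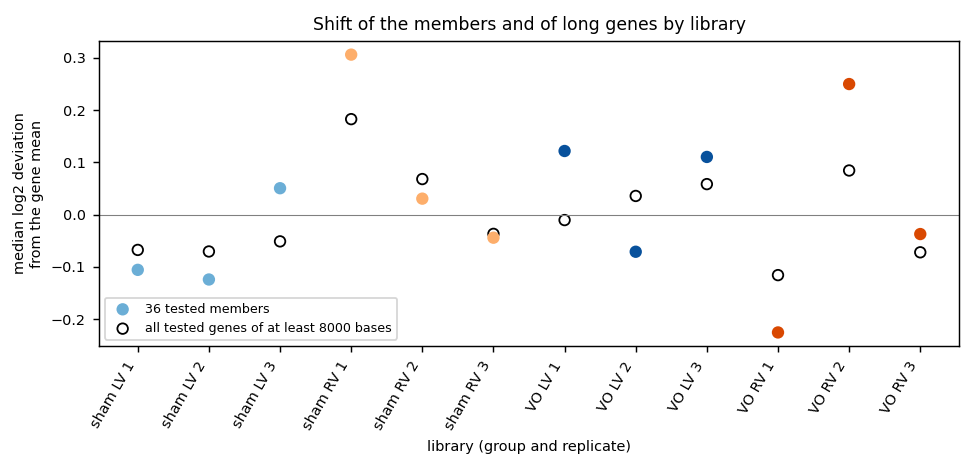
Median log2 deviation from each gene's mean over the 12 libraries, for the 36 tested members (filled points, coloured by group) and for all tested genes of at least 8000 bases (open points), by library. The members stand highest in sham RV replicate 1 (0.31) and VO RV replicate 2 (0.25) and lowest in VO RV replicate 1 (−0.23), and in these libraries the long genes lie on the same side of 0.

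Among the members 8 had a mean of at least 10 FPKM, 17 lay from 1 to 10 and 11 from 0.5 to 1. The classes differed in how many members passed the level: 12 of 14 gamma genes, 9 of 19 beta genes, 0 of 3 alpha genes, 5 of 10 protocadherins outside the clusters, 6 of 21 Cdh genes, 3 of 5 Fat and Dachsous genes and 1 of 3 Celsr genes. The members just above the level were Cdh3 (0.606), Pcdhga9 (0.534) and Pcdhb11 (0.503), and those just below it were Pcdhga5 (0.498), Cdh7 (0.478) and Pcdhb21 (0.463 FPKM). Cdh9, Cdh10 and Pcdhb1 were listed at 0 in every library. The coefficient of variation of a tested member, pooled within groups, had a median of 26.1%, from 6.86% for Cdh13 to 52.8% for Pcdhga7.

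**Figure D2:**
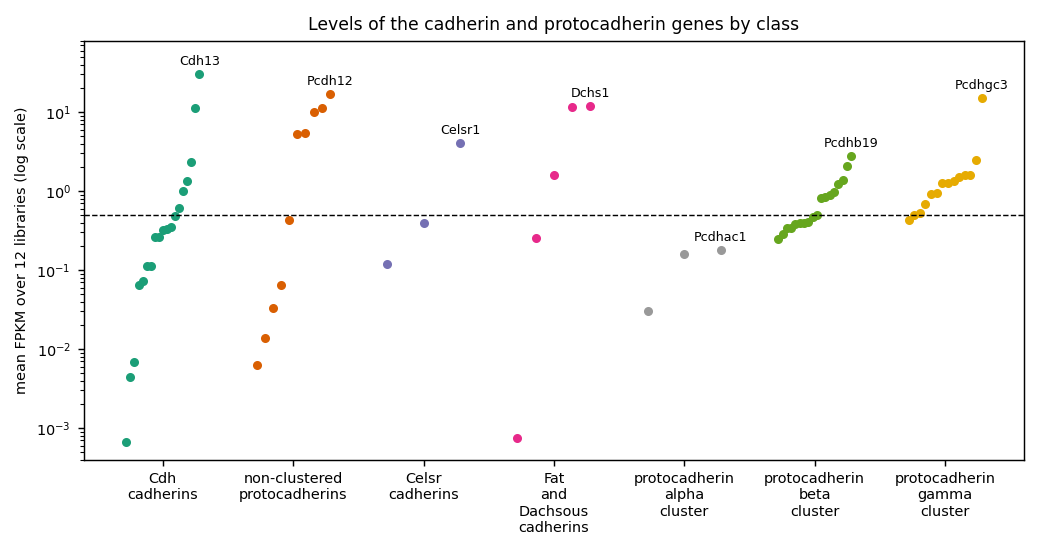
Mean FPKM over the 12 libraries (log scale) of the 72 members above 0, by class, with the highest member of each class named and a dashed line at 0.5 FPKM. Cdh13 leads the Cdh genes at 30.1 FPKM, and no alpha cluster gene reaches the line, while 12 of 14 gamma genes lie above it.

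Cdh13 (T-cadherin), which is anchored to the membrane by a lipid and has no tail for catenins, was the highest member. It was 27.98, 25.98 and 30.8 FPKM for sham LV, 31.8, 32.1 and 31.0 for sham RV, 31.3, 28.4 and 34.4 for VO LV and 30.9, 28.6 and 28.4 for VO RV (replicates 1 to 3 in each group). All 12 values lay within 1.32-fold of each other, and its log2 fold changes were between −0.17 and 0.26 in the 7 comparisons.

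Dchs1, a ligand of Fat4, was 11.5, 11.9 and 12.9 FPKM for sham LV, 13.7, 11.3 and 10.97 for sham RV, 12.9, 10.6 and 12.1 for VO LV and 9.37, 15.7 and 11.7 for VO RV. The groups overlapped in every comparison, and the group means were between 11.9 and 12.2 FPKM. Pcdh1 was 12.4, 10.4 and 15.2 FPKM for sham LV, 10.8, 11.6 and 9.61 for sham RV, 13.4, 12.5 and 11.1 for VO LV and 7.89, 9.93 and 11.3 for VO RV. Pcdh18 and Pcdh17, both protocadherins outside the clusters, followed at a lower level. Pcdh18 was 5.82, 4.26 and 5.99 FPKM for sham LV, 6.70, 5.52 and 3.80 for sham RV, 5.97, 6.29 and 5.33 for VO LV and 4.72, 6.93 and 4.52 for VO RV. Pcdh17 was 4.14, 5.69 and 8.25 FPKM for sham LV, 5.40, 4.87 and 5.40 for sham RV, 6.71, 4.76 and 5.41 for VO LV and 4.21, 3.98 and 5.08 for VO RV. For these 3 genes no comparison had an adjusted p under 0.05 in limma.

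The comparison of the ventricles without overload asked how LV and RV differ at P7. Pcdh7 and Celsr1 were lower and Pcdh12 was higher in the LV. These 3 of 36 tested members passed an adjusted p of 0.05 (limma with Benjamini-Hochberg adjustment over all tested genes) and a fold change of 1.3, against 3.85% of all tested genes. At an unadjusted p of 0.05 with the same fold, 7 members passed (17.8% of all genes). Over the 36 members 13 were higher and 23 lower in sham LV, and the median log2 fold change was −0.16, against 0.01 over all tested genes. That median was −0.05 without sham RV replicate 1 and −0.10 without sham LV replicate 1. In bulk tissue, fewer cells of a type and less RNA per cell cannot be told apart.

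Pcdh7, a protocadherin of the delta group (chromosome 14, 55072200 to 55081551, minus strand in the deposited table), was the tested member that changed most. It was 4.16, 3.05 and 5.33 FPKM for sham LV, 19.2, 14.2 and 11.3 for sham RV, 10.05, 11.8 and 17.6 for VO LV and 9.31, 10.1 and 4.04 for VO RV. All sham RV values were above all sham LV values, VO LV lay in the range of sham RV or just under it, and VO RV replicate 3 was as low as sham LV. Between sham LV (4.18 ± 1.14 FPKM, SD, n = 3) and sham RV (14.9 ± 3.99) the log2 fold change on the log2(FPKM + 0.5) scale was −1.72 with a standard error of 0.33 (adjusted p = 0.0332 in limma). The 250 bases before the RefSeq start of Pcdh7 are printed because this gene differed most. They lie at chr14:57113523-57113772 of GRCr8 and are read 5′ to 3′ on the minus strand, with the only CANNTG in capitals.
Pcdh7: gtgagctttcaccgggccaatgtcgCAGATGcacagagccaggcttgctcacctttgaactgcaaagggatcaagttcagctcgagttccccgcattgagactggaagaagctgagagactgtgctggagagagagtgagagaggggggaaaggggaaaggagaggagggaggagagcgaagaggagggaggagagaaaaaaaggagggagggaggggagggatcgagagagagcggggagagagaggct
The letters CANNTG were in 71.6% of all promoter windows. G and A made up 73.6% of the stretch before the start of Pcdh7, with a longest run of 45, against a median of 50.4% over all 27457 promoters, of which 0.284% were as high.

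Celsr1, an adhesion receptor of planar cell polarity (chromosome 7, 126775516 to 126913585, 8907 bases), was 1.68, 1.54 and 2.37 FPKM in sham LV and 7.23, 5.64 and 4.70 in sham RV. It was 4.28, 4.73 and 5.71 FPKM in VO LV and 4.25, 4.08 and 2.11 in VO RV. The sham LV libraries were the lowest of the 4 groups but for VO RV replicate 3, which lay between sham LV replicates 1 and 3. The log2 fold change between sham LV (1.86 ± 0.441 FPKM, SD, n = 3) and sham RV (5.86 ± 1.28) was −1.42 with a standard error of 0.24 (adjusted p = 0.0319 in limma). Among tested genes of at least 8000 bases 6.67% passed the same thresholds.

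Some ventricular cardiomyocyte markers differed between the same groups as Pcdh7 and Celsr1, but the list did not move as one. Of the 6 markers, none of them at 0, 4 were lower and 1 was higher in sham LV than in sham RV with no overlap, and their summed level, which overlapped between the sham groups, was 6860 to 7778 FPKM for sham LV, 6874 to 7602 for sham RV, 7229 to 8120 for VO LV and 5157 to 7279 for VO RV. Ryr2, the calcium release channel of heart muscle, was 21.2, 24.02 and 22.7 FPKM for sham LV, 55.8, 43.4 and 34.6 for sham RV, 34.9, 43.5 and 52.3 for VO LV and 29.9, 29.2 and 21.7 for VO RV. Like Pcdh7 and Celsr1 it was low in the sham LV libraries and in VO RV replicate 3. Tnni3, the cardiac troponin I, ran the other way in the LV, at 3384, 3740 and 3599 FPKM for sham LV, 2177, 2464 and 2581 for sham RV, 2927, 2628 and 2319 for VO LV and 2923, 1759 and 3041 for VO RV. The part of these markers in the Pcdh7 and Celsr1 differences was not tested.

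Pcdh12 (VE-cadherin-2), known as a protocadherin of endothelial cells, had the opposite direction. It was 20.4, 21.5 and 23.1 FPKM for sham LV, 13.5, 13.99 and 14.4 for sham RV, 18.3, 18.1 and 15.6 for VO LV and 14.04, 13.3 and 16.5 for VO RV. Every sham LV value was above every value of the other groups. The log2 fold change between sham LV and sham RV was 0.61 with a standard error of 0.10 (adjusted p = 0.0319 in limma). Endothelial markers moved with it: 5 of the 6 found were higher in sham LV, 4 of them with no overlap, and their summed level was 332 to 419 FPKM for sham LV, 232 to 270 for sham RV, 261 to 296 for VO LV and 247 to 315 for VO RV. Cldn5 was listed at 0 in all 12 libraries. The sums of mural and red blood cell markers were also higher in sham LV than in sham RV with no overlap. They were 480 to 582 against 408 to 438 FPKM for mural cells, and 9614 to 13173 against 4894 to 8156 for red blood cells. Of the fibroblast and endocardial markers 0 were higher in sham LV. The part of cell content in the Pcdh12 difference was not tested.

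These calls depended on single libraries. Without sham LV replicate 1, sham LV replicate 2, sham RV replicate 1, sham RV replicate 2 or VO LV replicate 2, 0 of the 3 members passed, with adjusted p values of 0.0507 to 0.130 in limma. The calls over all genes fell alike, from 536 to between 0 and 5 of 13910 in these 5 fits. The fold changes kept their direction throughout, from −1.89 to −1.52 for Pcdh7, from −1.57 to −1.27 for Celsr1 and from 0.57 to 0.66 for Pcdh12. With both atrial-rich libraries left out they were −1.52, −1.27 and 0.59, and 0 members passed (7 of 13910 genes), with 5 at the unadjusted p (14.1% of all genes). Within the libraries that held Y-linked transcripts Celsr1 was 1.54 to 1.68 FPKM in sham LV and 5.64 to 7.23 in sham RV, and in those without them it was 2.37 and 4.70. Pcdh7 was 3.05 to 4.16 and 14.2 to 19.2 FPKM in the former, and 5.33 and 11.3 in the latter.

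**Figure D3:**
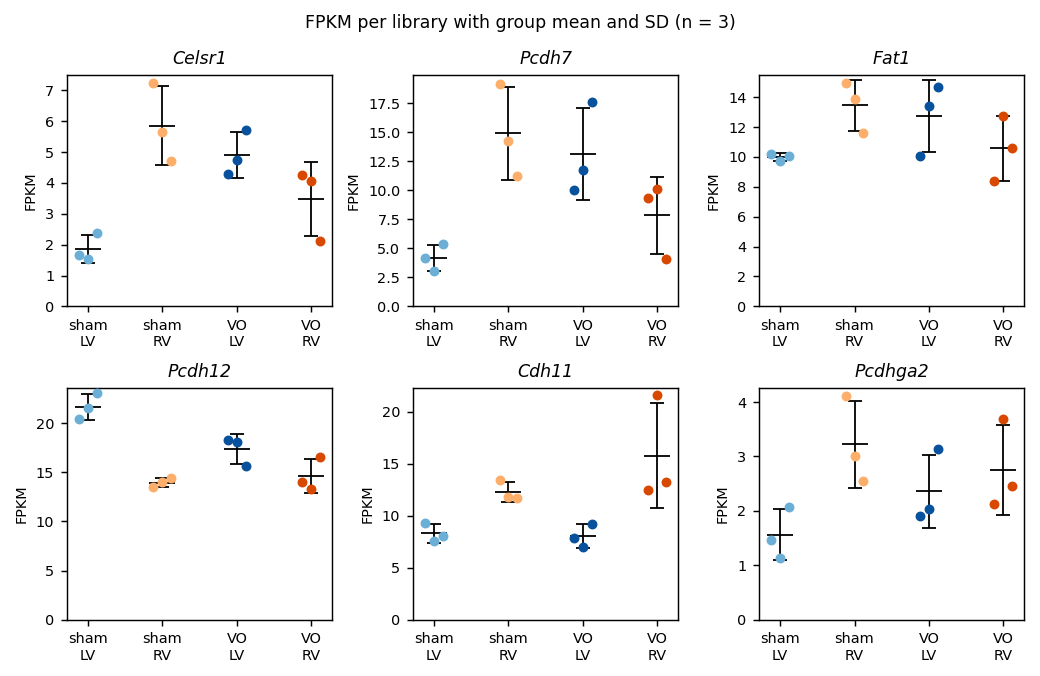
FPKM of 6 members in each library (points) with the group mean and SD (lines, n = 3) for the 4 groups, each axis starting at 0. On average Celsr1 and Pcdh7 are lowest in sham LV, Pcdh12 is highest there, and all 6 LV values of Cdh11 lie under all 6 RV values.

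Groups did not overlap between sham LV and sham RV for 10 of 36 members, against 32.2% of all tested genes. Beside Pcdh12, which was higher, Cdh11, Cdh13, Cdh3, Celsr1, Fat1, Pcdh7, Pcdhb3, Pcdhb5 and Pcdhga2 were lower in sham LV. Fat1, which is known to act on actin at the cell edge, was 10.2, 9.72 and 10.1 FPKM for sham LV, 14.95, 13.9 and 11.6 for sham RV, 10.04, 13.4 and 14.7 for VO LV and 8.40, 12.7 and 10.6 for VO RV. Its log2 difference in sham was −0.41 (standard error 0.16, adjusted p = 0.153 in limma), and the VO groups overlapped each other and both sham groups. Fat4, the receptor of Dchs1, had −0.39 in the same comparison.

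In the LV, VO was compared with sham to show the response of that ventricle, and 0 of 36 members passed both thresholds in limma, against 0.0935% of all tested genes. At the unadjusted p 3 members passed, all higher in VO LV (15.7% of all genes), and voom on the recovered reads called 2 members of 57 (2.37% of the 13819 genes in that fit). Pcdh7 had the highest fold change, a log2 value of 1.54 (standard error 0.33, adjusted p = 0.0540 in limma), with 3 of 3 VO LV libraries above all sham LV libraries. Celsr1 had 1.20 (standard error 0.24, adjusted p = 0.0519 in limma), also with no overlap. The voom fit, in which both passed, gave 1.66 and 1.42 with adjusted p values of 0.0411 and 0.0344. Both passed without sham LV replicate 3 and without VO RV replicate 3, where the adjusted p of Pcdh7 was 0.0466 and 0.0159, and Celsr1 alone passed without VO RV replicate 1 (adjusted p = 0.0457). In 19 of the 24 other settings Pcdh7 did not pass, and Celsr1 did not in 18, with adjusted p values in limma of up to 0.282 with the covariate for Y-linked transcripts and, with 1 library left out, up to 0.257 and 0.249 (without VO LV replicate 3). Of the 6 ventricular cardiomyocyte markers 4 were higher and 1 was lower in VO LV than in sham LV with no overlap, and their part in these values was not tested. No VO LV library held Y-linked transcripts, so within that stratum 1 sham LV library remained: Celsr1 was 2.37 FPKM in it and 4.28 to 5.71 in VO LV, and Pcdh7 was 5.33 and 10.05 to 17.6.

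The third member at the unadjusted p was Pcdhgc3, the highest of the gamma cluster, with a log2 fold change of 0.44 (adjusted p = 0.188 in limma). It was 12.2, 10.7 and 15.3 FPKM for sham LV, 19.0, 16.4 and 13.6 for sham RV, 17.7, 15.2 and 18.9 for VO LV and 12.02, 19.0 and 13.1 for VO RV. VO LV replicate 2 lay just under sham LV replicate 3, so the groups overlapped. Pcdh12 was the member that was lowest in VO LV relative to sham LV, with −0.31 (adjusted p = 0.108 in limma), and its groups did not overlap. In all, groups did not overlap for 5 members (32.4% of all genes): Celsr1, Pcdh7 and Pcdhga11 were higher in VO LV, and Pcdh12 and Pcdhgb5 lower. Over the 36 members the median was 0.06 against −0.02 over all genes, and it was 0.12 without VO LV replicate 2 and 0.10 without sham LV replicate 3.

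In the RV, 0 of 36 members passed both thresholds in limma (0% of all tested genes) and voom called 0 (0% of its genes). At the unadjusted p 2 members passed, against 4.91% of all genes, and both were lower in VO RV. They were Pcdh7 (−0.95 on the log2 scale, adjusted p = 0.547 in limma) and Celsr1 (−0.70, adjusted p = 0.545), which also had the highest fold changes of VO against sham in the LV. With Cdh13 and Pcdhga1 they were also the 4 members whose groups did not overlap (12.5% of all genes), all lower in VO RV. VO RV replicate 3 was the lowest for both, and without it the values were −0.56 for Pcdh7 and −0.42 for Celsr1 (adjusted p = 0.993 in limma for both). It was also the only VO RV library with Y-linked transcripts. In the libraries without them Pcdh7 was 11.3 FPKM for sham RV (1 library) and 9.31 to 10.1 for VO RV, and Celsr1 was 4.70 and 4.08 to 4.25. Of the ventricular cardiomyocyte markers 4 of 6 were lower in VO RV than in sham RV with no overlap, 0 were higher with no overlap, and their part was not tested. The member with the highest value in this comparison was Pcdhb11, at 0.50 on the log2 scale (0.33 without sham RV replicate 3, adjusted p not under 0.05 in limma). Over 23 other settings it ranged from 0.33 to 1.03. Its levels were low: 0.252, 0.452 and 0.249 FPKM for sham LV, 0.392, 0.638 and 0.203 for sham RV, 0.587, 0.312 and 0.606 for VO LV and 0.637, 1.08 and 0.630 for VO RV. Between 7 and 45 reads stood behind each of these values, and the RV groups overlapped through sham RV replicate 2.

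The responses of the ventricles were compared by an interaction term, the LV response minus the RV response. For Pcdh7 and Celsr1 the responses differed: 2 of 36 members passed both thresholds, against 4.19% of all tested genes and 8.15% of those of at least 8000 bases. Pcdh7 had a log2 value of 2.48 (standard error 0.47, adjusted p = 0.0291 in limma) and Celsr1 1.91 (standard error 0.34, adjusted p = 0.0249). At the unadjusted p 5 members passed (23.1% of all genes), the others being Fat1 (0.66), Pcdhgb7 (0.65) and Pcdhgc3 (0.60). The lowest value was that of Pcdhb17, at −0.56 (−0.85 when sham LV replicate 1 was left out and −0.35 when VO RV replicate 2 was), which was 0.488, 1.34 and 1.23 FPKM for sham LV, 0.883, 0.587 and 0.393 for sham RV, 0.799, 0.728 and 0.610 for VO LV and 0.504, 1.32 and 0.837 for VO RV. These groups all overlapped. Over the members the median was 0.12 against −0.04 over all genes, but it ranged from 0.01 without VO RV replicate 3 to 0.21 without sham RV replicate 3, and leaving out any of 8 libraries moved it by over 1.5 times. The interaction uses the same sham libraries as the comparison of sham LV with sham RV, so that the values of both comparisons are not independent.

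The interaction calls were lost without sham LV replicate 1, sham LV replicate 2, sham RV replicate 1, sham RV replicate 2, VO LV replicate 2 or VO LV replicate 3, with adjusted p values of 0.0558 to 0.0881 in limma, and in these 6 fits 0 to 4 of 13910 genes passed (583 with all libraries). Over all left-out libraries the values were 2.09 to 2.71 for Pcdh7 and 1.63 to 2.06 for Celsr1. Without both atrial-rich libraries they were 2.52 and 1.89, and 0 members passed (2 of 13910 genes), with 6 at the unadjusted p (22.7% of all genes). Of the 6 ventricular cardiomyocyte markers given above, 4 were higher in VO LV than in sham LV with no overlap, and Tnni3 was lower. Between VO RV and sham RV 4 of the 6 were lower with no overlap. These are separate counts, and Ryr2 was in both. The part of these markers in the interaction was not tested.

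**Figure D4:**
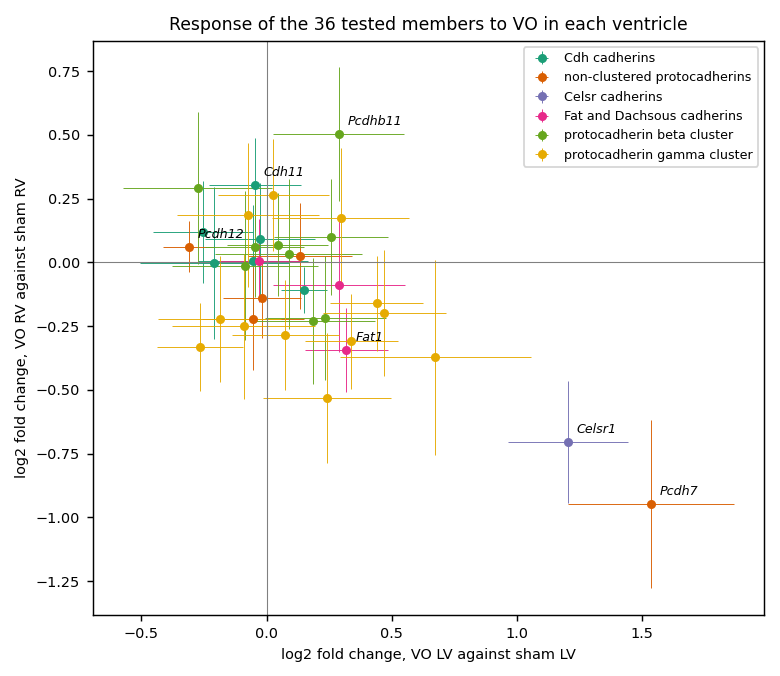
Log2 fold change of VO against sham in the LV (horizontal) and in the RV (vertical) for the 36 tested members, coloured by class, with standard errors as lines. Pcdh7 (1.54 and −0.95) and Celsr1 (1.20 and −0.70) lie apart at the lower right, and most of the other members lie within 0.5 of 0 on both axes.

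Between VO LV and VO RV 0 of 36 members passed both thresholds in limma, against 0.00719% of all tested genes, and voom called 0 (0.00724% of its genes). At the unadjusted p 5 members passed (7.40% of all genes). The lowest value was that of Cdh11, at −0.90 (standard error 0.18, adjusted p = 0.217 in limma), and the highest that of Pcdh7, at 0.77 (adjusted p = 0.421), which was 0.38 without VO RV replicate 3. The other 3 were Pcdhgb8 (−0.52), Cdh23 (0.50) and Pcdhgb7 (0.48). Groups did not overlap for 5 members, against 16.1% of all genes: Cdh23, Celsr1 and Pcdhgb7 were higher and Cdh11 and Pcdhb11 lower in VO LV.

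Over both treatments, 6 LV libraries stood against 6 RV libraries. In this comparison 0 of 36 members passed both thresholds in limma (0.0863% of all tested genes), 7 passed at the unadjusted p (4.49%), and voom called 1, which was Pcdh12 (0.123% of its genes). Cdh11, a cadherin known from mesenchymal cells and fibroblasts, was the 1 member with no overlap between the ventricles, against 0.855% of all genes. It was 9.32, 7.58 and 8.05 FPKM in sham LV and 7.90, 6.99 and 9.23 in VO LV. In the RV it was 13.4, 11.8 and 11.7 FPKM in sham and 12.5, 21.6 and 13.2 with VO. All 6 LV values lay under all 6 RV values, whether sham or VO. The log2 fold change was −0.72 (standard error 0.13, adjusted p = 0.0778 in limma). Without VO RV replicate 2, the highest library, it was −0.60, and without both atrial-rich libraries −0.57. Without VO RV replicate 3 it passed in limma (−0.77, adjusted p = 0.0491).

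Fibroblast and endocardial markers were, like Cdh11, lower in the LV on average. In the sham groups 0 of 7 fibroblast markers were higher in the LV on average, and 1 was lower with no overlap. Between VO LV and VO RV 0 of 7 were higher, and 5 were lower with no overlap. Their summed level was 2471 to 2685 FPKM for sham LV, 2650 to 3496 for sham RV, 1974 to 2427 for VO LV and 2410 to 4692 for VO RV, with the highest value in VO RV replicate 2. Unlike Cdh11, these sums overlapped between the ventricles in sham and with VO. Epicardial and mesothelial markers summed to 25.1 to 31.5, 31.1 to 41.5, 17.7 to 27.8 and 28.2 to 58.9 FPKM in the same order. The 2 endocardial markers found of 3, Npr3 and Cytl1, summed to 3.41 to 9.39 FPKM in the 6 LV libraries and to 9.95 to 28.2 in the 6 RV libraries, with no overlap and the highest value in VO RV replicate 2. The part of cell content in the Cdh11 difference was not tested.

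Pcdh12 had a log2 difference of 0.43 between LV and RV over both treatments (standard error 0.07, adjusted p = 0.0634 in limma, which did not pass). It passed with voom (adjusted p = 0.0443) and in limma without VO RV replicate 3 (0.47, adjusted p = 0.0442). Its exact permutation p, which is not adjusted, was 0.00433 over 6 against 6 libraries, and VO LV replicate 3 and VO RV replicate 3 were the libraries that overlapped. Of the 15 members given this test, Cdh11 (0.00216), Cdh23 (0.00866) and Pcdh1 (0.0238) were also under 0.05 in this comparison. The rest were at 0.160 or more. Cdh23, known from the tip links of hair cells in the ear, had the highest log2 difference, 0.52 (adjusted p = 0.222 in limma). It was 1.83, 1.23 and 2.12 FPKM for sham LV, 0.769, 0.919 and 1.36 for sham RV, 1.77, 1.92 and 1.22 for VO LV and 1.20, 0.924 and 0.894 for VO RV. Sham RV replicate 3 was the only RV library above the lowest LV libraries. The gene MGC112715 overlaps Cdh23 on the other strand at a mean of 11.8 FPKM. Whether their exons overlap was not examined, and strand use in counting is not given in the sources used here. How far reads of the pair can be told apart is therefore not known.

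VO against sham over both ventricles gave 0 members past both thresholds in limma (0.0144% of all tested genes), 0 at the unadjusted p with a fold over 1.3 (1.59%), and 0 with voom (0.0145% of its genes). No member had groups that did not overlap in this comparison of 6 against 6 libraries (0.144% of all genes). The highest value was that of Pcdhb11 (0.40 on the log2 scale) and the lowest that of Pcdhgb5 (−0.30, fold change 1.23), with an adjusted p of 0.938 in limma for Pcdhgb5. Pcdhgb5 was 1.87, 1.72 and 1.84 FPKM for sham LV, 2.17, 2.03 and 1.35 for sham RV, 1.44, 1.26 and 1.56 for VO LV and 1.20, 1.63 and 1.22 for VO RV. All but 1 sham library (sham RV replicate 3) were above all VO libraries.

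**Figure D5:**
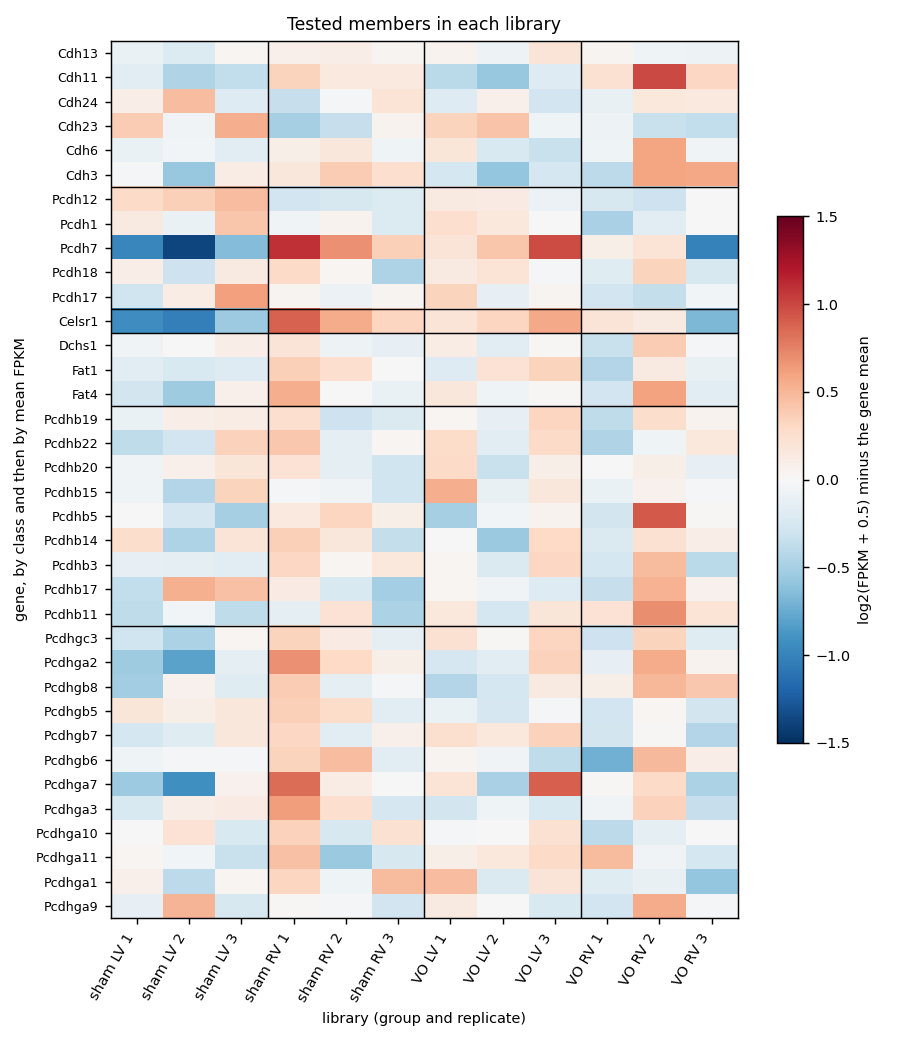
Log2(FPKM + 0.5) minus the gene's mean for the 36 tested members (vertical, by class and then by mean FPKM) in the 12 libraries (horizontal, by group). Pcdh7 and Celsr1 are low in the 3 sham LV libraries and in VO RV replicate 3, and most genes are above their mean in sham RV replicate 1 (30 of 36) and VO RV replicate 2 (27 of 36).

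The gamma cluster genes, which code for protocadherins that bind their own kind across cells, were described as a class of 12 tested genes. Without overload 10 of 12 were lower in the LV, with log2 fold changes from −0.86 to 0.15 and a median of −0.23. None passed the adjusted p (3.85% of all genes), and Pcdhga2 alone passed at the unadjusted p (17.8%). Pcdhga2 was 1.47, 1.14 and 2.08 FPKM for sham LV, 4.11, 3.01 and 2.55 for sham RV, 1.91, 2.03 and 3.13 for VO LV and 2.13, 3.69 and 2.45 for VO RV, and its sham difference was −0.86 (adjusted p = 0.0693 in limma). With array weights it passed (−0.78, adjusted p = 0.0390 in limma), in a fit that called 9.5% of all genes. With VO, 8 of 12 were higher in the LV (median 0.16) and 9 of 12 lower in the RV (median −0.24), and the interaction was positive for 10 of 12 (median 0.26). These comparisons share libraries, and sham RV replicate 1, the highest sham RV library for 10 of the 12 genes, enters the sham comparison, the RV response and the interaction. VO RV replicate 2 was likewise the highest VO RV library for 10 of the 12 and enters the latter pair. Without sham RV replicate 1 the medians were −0.09, −0.08 and 0.17 in these 3 comparisons, and without VO RV replicate 2 those of the RV response and the interaction were −0.40 and 0.40. Pcdhga7, with the widest spread of the tested members, had −0.78 in the sham comparison and 1.05 in the interaction, and neither passed.

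The beta cluster, whose genes are each a complete coding exon, had 0 of 9 members called in each comparison, against 0% to 4.19% of all tested genes. Of its 9 tested genes 5 were lower in the sham LV (median −0.05), 6 were higher in VO LV (median 0.09), 6 were higher in VO RV (median 0.06) and 4 had a positive interaction (median −0.02). Pcdhb19 was the highest, with a mean of 2.80 FPKM and log2 fold changes between −0.02 and 0.12 over the 7 comparisons. Each of these medians changed sign with 1 library left out: that of sham was 0.09 without sham RV replicate 1, that of VO LV −0.02 without VO LV replicate 3, and those of VO RV and the interaction −0.08 and 0.12 without VO RV replicate 2. VO RV replicate 2 was the highest VO RV library for 8 of the 9 beta genes and the highest of all 12 for 3, among them Pcdhb5 (2.18 FPKM there and 0.50 to 1.28 elsewhere).

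Among the other Cdh genes, Cdh24, Cdh6 and Cdh3 were tested and none passed in any comparison. Cdh3 (P-cadherin), known from epithelia, was lower in sham LV with no overlap (0.22 to 0.65 FPKM against 0.69 to 0.88 in sham RV, log2 fold change −0.43). Its VO values were 0.21 to 0.39 FPKM in the LV and 0.31 to 1.11 in the RV. Cdh24 had a sham difference of 0.18 and Cdh6 of −0.16. The summed level of all 21 Cdh members was 44.7 ± 2.77 FPKM for sham LV, 51.4 ± 0.55 for sham RV, 46.5 ± 3.74 for VO LV and 53.1 ± 5.49 for VO RV (SD, n = 3), of which Cdh13 and Cdh11 made the greater part.

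The members under 0.5 FPKM included 15 Cdh genes. Cdh7, Cdh22, Cdh26, Cdh16, Cdh20 and Cdh19 had a mean between 0.264 and 0.478 FPKM, and Cdh15, Cdh17, Cdh1, Cdh4, Cdh18, Cdh8 and Cdh12 were between 0.000662 and 0.113. Cdh1 (E-cadherin), the cadherin of epithelia, had 2 to 10 reads per library. Among the protocadherins outside the clusters Pcdh20 was at 0.435, and Pcdh9, Pcdh10, Pcdh15 and Pcdh8 were between 0.00626 and 0.0643 FPKM. Celsr2 (0.392) and Celsr3 (0.118) were the other Celsr genes, and Fat3 (0.258) and Fat2 (0.000742) the other Fat genes. Of the clustered genes, Pcdhga5, Pcdhga8 and the beta genes Pcdhb2, Pcdhb4, Pcdhb7, Pcdhb8, Pcdhb9, Pcdhb10, Pcdhb12, Pcdhb13 and Pcdhb21 had between 0.245 and 0.498 FPKM. The 3 alpha genes Pcdhac1, Pcdha3 and Pcdha2 lay at 0.181, 0.159 and 0.0303 FPKM.

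Of these low members 21 had enough reads for voom, and 0 passed in any of the 7 comparisons. At the unadjusted p, 2 of the 21 passed between sham LV and sham RV (19.1% of all genes in the voom fit), 3 between VO LV and sham LV (17.3%), 0 between VO RV and sham RV (5.37%) and 4 between VO LV and VO RV (8.81%). In the interaction 1 passed (24.2%), between LV and RV over both treatments 5 (5.82%) and between VO and sham over both ventricles 3 (1.8%), with a lowest adjusted p of 0.159, 0.178 and 0.924. The 5 were Cdh7, Cdh22, Pcdhb9 and Pcdhb21, lower in the LV, and Cdh26, higher, and the 3 were Celsr2 and Cdh20, higher with VO, and Cdh22, lower. Celsr2, another planar polarity receptor, had a log2 fold change of −0.67 between sham LV and sham RV (adjusted p = 0.147) and 0.84 between VO LV and sham LV (adjusted p = 0.0915), from 36 to 117 reads per library. Cdh7 had −1.41 between VO LV and VO RV (adjusted p = 0.229) and Pcdhb9 −1.45 (adjusted p = 0.227).

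The partners of these adhesion proteins were taken from 7 lists with 83 genes, of which 64 were tested. Between sham LV and sham RV 3 of the 64 passed both thresholds, against 3.85% of all tested genes. They were Ctnna3, the alpha-T-catenin of heart muscle (log2 fold change −1.42, adjusted p = 0.0498 in limma), Dsg2, a desmosomal cadherin (−0.72, adjusted p = 0.0343), and Adam15, a membrane protease (0.50, adjusted p = 0.0370). Of 10 tested catenins and junction adaptors, 1 was called, 1 was higher in sham LV and the median was −0.27. In the interaction all 10 were positive (median 0.37), and 2 were called, Ctnna3 (2.14) and Ctnna1 (0.48), against 4.19% of all genes. Ctnna3 was 1.40, 1.11 and 1.55 FPKM for sham LV, 8.52, 3.78 and 2.59 for sham RV, 2.97, 3.57 and 6.09 for VO LV and 2.09, 2.96 and 1.82 for VO RV. Its sham LV values were the lowest, and sham RV replicate 1 was the highest library.

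The other interaction calls in these lists were Enah, an actin regulator listed with the Fat partners (0.99), Dsg2 (0.93) and Furin, a protease that cleaves cadherin precursors (0.62). For each of the lists of planar polarity partners of Celsr (14 tested), protocadherin effectors (10) and regulators of the clustered locus (9), 0 genes were called in any comparison. Over all tested genes 0% to 4.19% were called per comparison, so that 0 in lists of this size is near that share. The median of the planar polarity list was 0.00 between sham LV and sham RV and −0.15 in the interaction, and 5 of its genes passed at the unadjusted p in the latter (23.1% of all genes). In the VO LV, VO RV and VO LV against VO RV comparisons 0 of 64 genes passed in limma, with 10, 1 and 2 at the unadjusted p (15.7%, 4.91% and 7.40% of all genes), and over both treatments or both ventricles it was 0 and 0 at either p.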

How the data were processed

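RNA-seq libraries of neonatal rat LV and RV free wall, 3 per group in 4 groups, were analysed from 1 deposited table. The authors removed low-quality reads, aligned the rest with HISAT2 2.0.5, counted reads per gene with featureCounts 1.5.0-p3, and deposited FPKM for each library. The genome build, annotation release and strand setting are not given in the sources used here. No column of values was left unmapped (0). Reads per gene were recovered from the steps of the FPKM, and 100% of values under 200 reads were whole within 0.02 in every library. More reads make a value more precise, so low members with few reads are the least certain.

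Each library's FPKM were scaled by its median-ratio size factor and taken as log2(FPKM + 0.5). Genes averaging at least 0.5 FPKM entered 1 limma 3.58.1 model of the 4 groups (lmFit, contrasts.fit and a trended eBayes, under R 4.3.3), so that the groups share 1 estimate of the spread. Members were called at a Benjamini-Hochberg adjusted p under 0.05 over all tested genes and a fold change over 1.3, the authors' thresholds. The authors used DESeq2 on counts, which was not run here. For groups of 6 libraries an exact permutation test (two-sided) of FPKM was added. With 3 libraries against 3 its smallest p is 0.10.

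The members and gene lists were chosen with earlier results of these data known. Members named with values in every library are those called in any comparison, the 10 with the highest mean, and the highest and lowest fold change of each comparison, with Pcdhga2 added after its values were seen. Of genes with the symbols Ctnna3 and Cdhr4, the row with the higher level was taken. Some genes of the lists were not matched and were not used here. The alternatives were other scalings, pseudocounts of 1 and 0.1, other filters, voom on the recovered reads, array weights, removal of the gene-length trend (lowess, span 0.3), the replicate number as a block, and each library left out in turn. Leaving out both atrial-rich libraries and a covariate for Y-linked transcripts were added after seeing the data. The fit was tested on simulated data.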

Additional observations from a re-analysis of the deposited data

Results flagged for a closer look

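The response to VO differed between the ventricles for 2 members, by the interaction term of the limma model, against 4.19% of all tested genes and 8.15% of those of at least 8000 bases. For Pcdh7 the LV response exceeded the RV response by 2.48 on the log2 scale (adjusted p = 0.0291), with 3 of 3 VO LV libraries above and 3 of 3 VO RV libraries below all sham libraries of the same ventricle. For Celsr1 the difference was 1.91 (adjusted p = 0.0249), with the same arrangement of the libraries. VO RV replicate 3 gave the lowest VO RV value of both genes, and without it the differences were 2.09 and 1.63. Sham RV replicate 1 gave their highest sham RV value, and without it they were 2.29 and 1.76 and neither passed (0 of 13910 genes). Both calls were lost for 6 of the 12 libraries left out in turn. Of the 6 ventricular cardiomyocyte markers 4 were higher and 1 (Tnni3) lower in VO LV than in sham LV, and 4 were lower in VO RV than in sham RV, all with no overlap, and their part in the difference was not tested.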

How the results depend on the processing

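None of 16 results of single members changed direction. Over them and 24 other settings, 332 of 381 values stayed on the same side of the thresholds, 42 no longer passed and 7 newly passed. Most of the 16 results had not passed to begin with, so this share does not measure how stable the calls were. Each of the 3 calls between sham LV and sham RV held in 16 of 24 settings. Each of the 2 calls for the difference of the responses held in 15 of 24. Between sham LV and sham RV 3 members were called (536 of 13910 genes). With all genes above 0 tested it was 0 (8 of 21603 genes), and without both atrial-rich libraries 0 (7 of 13910). With array weights 5 were called (1321 of 13910 genes, 9.5%), and with 1 library left out 0 to 4 (0 to 870 of 13910 genes). For the difference of the responses 2 members were called (583 of 13910 genes). The number was 0 with all genes above 0 (21 of 21603 genes) or without both atrial-rich libraries (2 of 13910). With 1 library left out it was 0 to 2 (0 to 1003 of 13910 genes). Testing all genes above 0 raised the number of tests to 21603. For VO LV against sham LV 0 members were called (13 of 13910 genes). It was 2 with a mean of at least 1 FPKM, with voom and with array weights. Over all genes these settings called 183 of 12667, 328 of 13819 and 704 of 13910 (1.44%, 2.37% and 5.06%). With 1 library left out it was 0 to 2 members (0 to 554 of 13910 genes). For LV against RV over both treatments it was 1 with voom (17 of 13819 genes) and 2 with array weights (21 of 13910). With 1 library left out it was 0 to 2 (1 to 68 of 13910 genes). Medians over the 36 members changed sign under 0 of 24 settings between the sham groups, in the LV and for the difference of the responses, but under 2 in the RV (−0.05, 0.02 without VO RV replicate 1), 1 between VO LV and VO RV, 3 between LV and RV over both treatments (−0.02, 0.08 without both atrial-rich libraries) and 5 between VO and sham. The causes were not tested. With the replicate number as a block, 0 members were called between the sham groups (from 3) and 0 for the difference of the responses (from 2), beside 3 and 1 of 13910 genes (from 536 and 583). The deviations of libraries with the same number correlated from −0.28 to 0.12 between groups, and the numbers were not taken as pairs. Between LV and RV the values were 0.045, 0.038 and 0.123 in sham and 0.054, −0.051 and −0.218 with VO (replicates 1 to 3). They do not tell whether the sham libraries were paired. The covariate for Y-linked transcripts changed none of these 7 counts. Depth limits the low members: 12 to 43 reads stood behind each value of Pcdhga9.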
